A study of Astatotilapia calliptera with 66 samples.

Results

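The livers of 13 wild *Astatotilapia calliptera* were analysed in which both the transcriptome and the methylome had been measured in the same fish. The fish were chosen by the fish identifier that the titles of an RNA-seq library and of a reduced-representation bisulfite sequencing (RRBS) library share, and they are 13 of the 35 wild fish with RRBS data and 26 of the 66 libraries of the series. *A. calliptera* is a cichlid of the Lake Malawi catchment. The series compares populations of this species from the crater Lake Masoko in Tanzania, where a littoral ecomorph lives near the shore and a benthic ecomorph in deep water, with riverine fish from the neighbouring river. The 13 fish comprised 4 riverine fish (G08F07, G09D04, G09D07 and G09D10), 4 littoral fish (G08H10, G10G05, G10H04 and G10H05) and 5 benthic fish (G10E03, G10E09, G10F07, G10G01 and G10G02). All were wild-caught adult males without experimental treatment, and both libraries were made from liver. The study's methods name homogenized liver tissue for the RNA libraries and liver tissue for the RRBS libraries. The labels give no age, diet or season, and each fish is a separate animal.

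In vertebrates, methyl groups are placed on the cytosine of CG dinucleotides. Most CG sites outside CG-rich promoters are methylated in most cells, promoters rich in CG are mostly unmethylated, and sites of intermediate methylation are often found where cells or individuals differ. After each round of replication, Dnmt1 copies the pattern to the new strand with the help of Uhrf1, and Tet enzymes oxidize methylcytosine, which can lead to its loss. The liver is the main site of the turnover of S-adenosylmethionine, the methyl donor for these reactions. RRBS covers the CG-rich part of the genome and gives, for each CG site, the percent of reads in which the site was methylated. Expression is given as transcripts per unit of library corrected for transcript length (TPM).

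The RRBS table holds 151900 CG sites read in every fish, with 135040 on linkage groups, 16737 on scaffolds without a place and 123 in mitochondrial DNA. The RNA table holds 51012 transcripts of 29676 genes, of which 19698 have only a LOC identifier and no name. TPM and percentages keep no read depth, so no counting interval can be given for a gene or a site. All 4 littoral fish had fewer mapped RRBS reads than any of the other 9 fish. The number of genes with any TPM ranged from 19921 to 21946 in the riverine, from 20576 to 22900 in the littoral and from 22938 to 24012 in the benthic livers. The RNA libraries came from 2 sequencing runs, with 4 riverine fish and the littoral fish G08H10 in the first, and 3 littoral and 5 benthic fish in the second. No run holds both riverine and benthic livers, so that run and population cannot be told apart in this comparison of transcriptomes.

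The label of the tissue was checked against 7 hepatocyte markers. Their summed level lay between 21854 and 44623 TPM in the 13 livers, and *fgb* and *fgg*, which encode fibrinogen chains, were among the highest. Markers of other cells were present at lower levels. The sum of 8 leukocyte markers was 106 to 227 TPM in riverine, 128 to 521 TPM in littoral and 161 to 1913 TPM in benthic fish, with the highest value in G10G02. *cd74* weighs most in this sum, at 100 to 215, 121 to 476 and 150 to 1582.5 TPM in the same order. The islet hormone genes *ins* and *gcg* reached 2081 and 738 TPM in the littoral fish G10H04, *ins* reached 30.8 TPM in the littoral fish G10G05, and *gcg* reached 4.5 TPM in the benthic fish G10F07. *cpb1*, a pancreatic digestive enzyme gene, was detected in every liver and was highest in the riverine fish G09D07 with 2068 TPM. Of the muscle markers, 1 is in the table, and its mean was below the limit for testing. The part of these other cells in the results below was not tested.

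The question asked first was whether fish that are far apart in the methylome are also far apart in the transcriptome. Expression distance was 1 minus Spearman's rho over all genes, and methylation distance was the mean absolute difference in percentage points over all CG sites. Among the 78 pairs of fish, 22 were of the same population. Expression distance was 0.111 ± 0.0205 (SD) in these 22 pairs and 0.136 ± 0.0173 in the 56 pairs of different populations, a difference of 0.0256. Methylation distance was 8.68 ± 0.409 points within and 9.53 ± 0.520 points between populations, a difference of 0.846 points. None of the 90090 arrangements of the population labels other than those that keep the populations gave as large a difference in either readout (exact permutation test, one-sided, p = 2.22e-05 for each). Pairs share fish and are not independent, and the test therefore permutes fish.

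**Figure D1:**
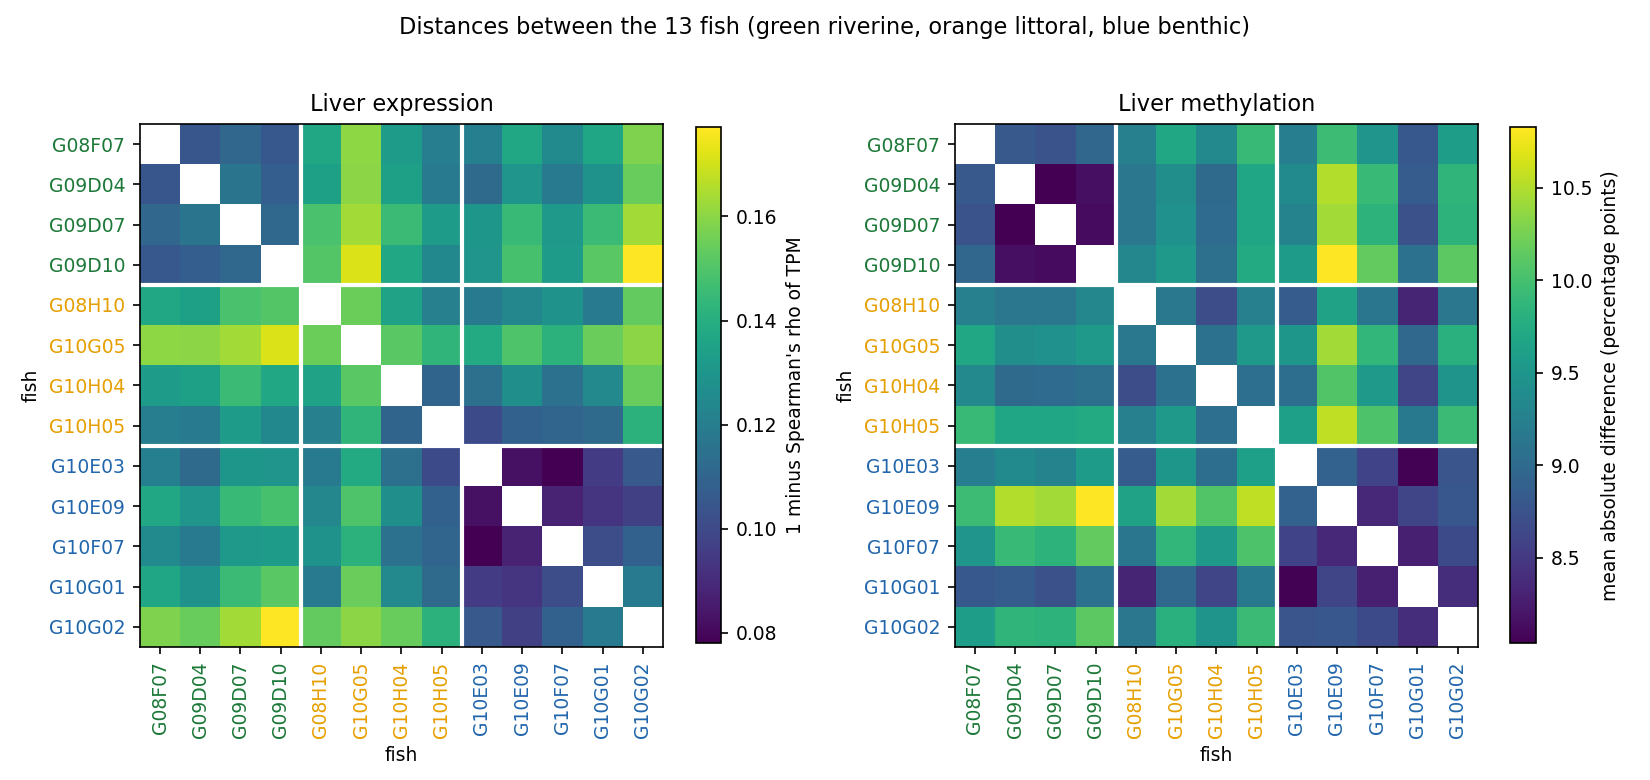
Distances between the 13 fish, ordered by population, in expression (left, 1 minus Spearman's rho over all genes) and in methylation (right, mean absolute difference over CG sites in percentage points). Benthic pairs (mean 0.0968) and riverine pairs (mean 0.109) are closer in expression than littoral pairs (mean 0.136), and the same blocks are closest in methylation (8.54, 8.47 and 9.13 points).

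The separation held in the 8 fish of the second RNA run alone. Between minus within populations was 0.0246 for expression and 0.943 points for methylation (exact permutation test, one-sided, p = 0.0179 for each, the smallest value 3 littoral against 5 benthic fish allow). It was spread over the genome, since between-population methylation distance exceeded within-population distance on each of the 22 linkage groups, by 0.659 to 1.06 points, and on the unplaced scaffolds by 0.729 points. With the sum of the log mapped reads of both fish regressed out, the difference was 0.833 points.

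How alike the members of each population were is given as a description and was not tested. Benthic pairs lay at 0.0968 ± 0.0124 in expression (SD, 10 pairs) and 8.54 ± 0.267 points in methylation. Riverine pairs lay at 0.109 ± 0.00424 and 8.47 ± 0.411 points (6 pairs). Littoral pairs were the most distant in both readouts, at 0.136 ± 0.0176 and 9.13 ± 0.275 points (6 pairs). The littoral fish are also the fish with the fewest mapped RRBS reads and the only ones spread over both RNA runs, and the part of these in their spread was not tested. Between populations, expression distance was 0.142 for riverine and littoral, 0.139 for riverine and benthic and 0.130 for littoral and benthic pairs. Methylation distance was 9.40, 9.67 and 9.49 points in the same order. These means differed from each other by less than the SD among the pairs of each.

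Over all 78 pairs, expression and methylation distances rose together (Pearson's r = 0.453, permutation test, two-sided, p = 0.0023; Spearman's rho = 0.447, p = 0.00294). With methylation distance taken as 1 minus rho over CG sites, r was 0.110 (permutation test, p = 0.596). Among fish of the same population no relation was detected. Over the 22 same-population pairs, centred per population, r was −0.108 (exact permutation over 69120 arrangements, two-sided, p = 0.685) and rho was −0.133 (p = 0.638). With all 78 pairs kept and the mean of each pair of populations removed, r was 0.0654 (p = 0.845) and rho was 0.0405 (p = 0.888). In the 8 fish of the second run, r was 0.518 over 28 pairs (permutation test, p = 0.0594) and −0.0142 over the 13 same-population pairs (exact permutation test, p = 0.971). With 4 or 5 fish in a population, a weak relation within populations was not detectable.

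**Figure D2:**
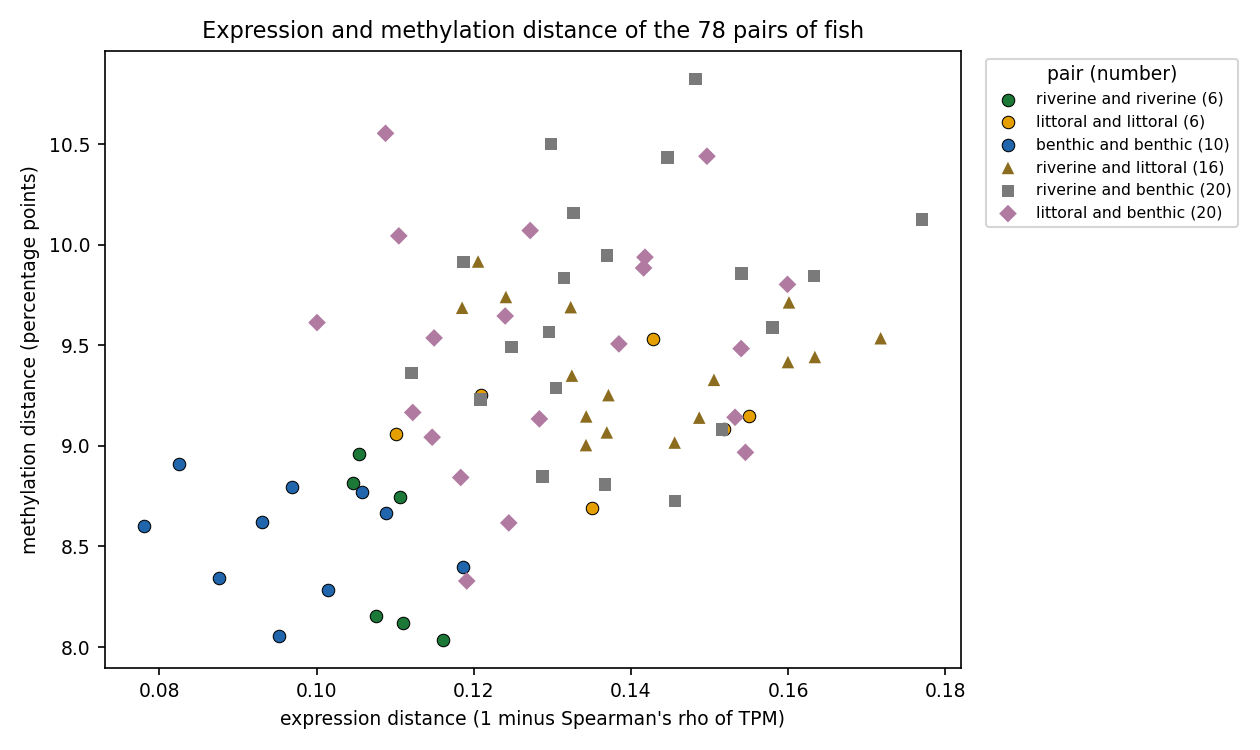
Expression distance (x axis, 1 minus Spearman's rho) against methylation distance (y axis, percentage points) for the 78 pairs of fish, by pair of populations. Over all pairs r is 0.453, and over the 22 pairs of the same population, centred per population, it is −0.108.

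The pairs at the extremes of each readout were different pairs. The riverine pair G09D04 and G09D07 had the closest methylomes of all 78 pairs (8.04 points) and, at 0.116, the most distant transcriptomes of the 6 riverine pairs. The benthic pair G10E03 and G10F07 had the closest transcriptomes of all pairs (0.0780) and a methylation distance of 8.60 points, near the mean of the benthic pairs. The most distant transcriptomes were those of riverine G09D10 and benthic G10G02 (0.177, 10.1 points). The most distant methylomes were those of riverine G09D10 and benthic G10E09 (10.8 points, 0.148).

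The nearest fish was of the same population for 10 of 13 fish in expression and for 10 of 13 fish in methylation. In both readouts these were all 4 riverine fish, all 5 benthic fish and 1 of 4 littoral fish. Not 1 of the 13 fish had the same nearest fish in both readouts. In expression, the littoral fish G08H10, G10G05 and G10H05 were nearest to the benthic fish G10E03, and G10H04 was nearest to G10H05. In methylation, G08H10, G10G05 and G10H04 were nearest to the benthic fish G10G01, and G10H05 was nearest to G10H04. G10G01 was also the nearest fish of benthic G10E03, G10F07 and G10G02, and it had the most mapped RRBS reads of the lake fish. The part of read depth in this nearness was not tested. When the methylome of each fish was set against the other 22 wild fish with RRBS data (7 riverine, 8 littoral and 7 benthic), its mean distance was smallest to its own population for 12 of 13 fish. That includes all 4 littoral fish. The exception was riverine G08F07, at 8.84 points from the other littoral fish and 9.002 points from the other riverine fish.

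Sites were then divided by their mean over the 13 fish. A total of 54768 sites (36.1%) were under 20%, 18538 (12.2%) between 20 and 80% and 78594 (51.7%) at 80% or more. Distances between populations exceeded those within populations in each class, by 0.108 points (exact permutation test, one-sided, p = 0.00773) in low, 4.81 points (p = 2.22e-05) in intermediate and 0.425 points (p = 2.22e-05) in highly methylated sites. Over all pairs, r with expression distance was −0.187 for low, 0.336 for intermediate and 0.546 for highly methylated sites. Within populations it was −0.279, −0.260 and 0.150. The differences between the classes in r were not tested.

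Mean methylation over all CG sites rose from riverine over littoral to benthic fish. The riverine fish were at 55.06% (G08F07), 54.42% (G09D04), 54.00% (G09D07) and 53.87% (G09D10). The littoral fish were at 56.13% (G08H10), 55.09% (G10G05), 55.36% (G10H04) and 55.32% (G10H05). The benthic fish were at 56.43% (G10E03), 57.83% (G10E09), 57.03% (G10F07), 56.53% (G10G01) and 56.57% (G10G02). The ranges of the 3 populations did not overlap, although the highest riverine and the lowest littoral fish were close.

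The riverine mean was 54.3% ± 0.54 (SD, n = 4), the littoral mean 55.5% ± 0.45 (n = 4) and the benthic mean 56.9% ± 0.58 (n = 5). Benthic fish exceeded riverine fish by 2.54 points and littoral fish by 1.40 points (exact permutation test, two-sided, Benjamini-Hochberg over 3 comparisons, adjusted p = 0.0119 for both). Littoral fish exceeded riverine fish by 1.14 points (exact permutation test, adjusted p = 0.0286, the smallest p that 4 against 4 fish allow). On linkage groups alone this last difference was 1.11 points with an adjusted p of 0.0571 (exact permutation test). It was 0.917 to 1.38 points with any single fish left out, and the unadjusted p was 0.0571 (exact permutation test) when any 1 of the littoral fish G08H10, G10G05, G10H04 or G10H05 was left out. In the other 22 fish, which entered none of these values, the differences were 1.19 points for littoral against riverine (exact permutation test, adjusted p = 0.000466), 2.45 points for benthic against riverine (adjusted p = 0.000874) and 1.26 points for benthic against littoral fish (adjusted p = 0.00124).

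The steps from riverine to littoral and from littoral to benthic fish were seen mostly in different classes of sites. At highly methylated sites, both lake ecomorphs were higher than riverine fish. Riverine fish had a mean of 91.6% ± 0.49 (SD, n = 4), littoral fish of 93.5% ± 0.44 (n = 4) and benthic fish of 93.5% ± 0.15 (n = 5). Littoral fish were 1.98 points above riverine fish (exact permutation test, two-sided, adjusted p = 0.0429), benthic fish were 1.98 points above riverine fish (adjusted p = 0.0238), and benthic minus littoral was 0.0059 points (adjusted p = 0.952). Of the 1.14 points between littoral and riverine fish in the mean over all sites, 1.02 points came from these sites.

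At intermediate sites the benthic fish stood apart. Riverine fish were at 52.1% ± 2.42, littoral fish at 53.3% ± 1.95 and benthic fish at 63.2% ± 3.56. The lowest benthic fish, G10G01, was at 60.3%, above the highest fish of the other populations, littoral G08H10 at 56.2%. Benthic fish exceeded riverine fish by 11.1 points and littoral fish by 9.97 points (exact permutation test, adjusted p = 0.0119 for both), while littoral minus riverine was 1.16 points (adjusted p = 0.4). These sites are 12.2% of all sites and carried 1.22 of the 1.40 points between benthic and littoral fish. At low sites, benthic fish (2.11%) were 0.432 points above riverine fish and 0.514 points above littoral fish (exact permutation test, adjusted p = 0.0238 for both), and littoral minus riverine was −0.0821 points (adjusted p = 0.457). The completeness of the bisulfite conversion of each library was not examined, and its part in these small differences was not tested.

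**Figure D3:**
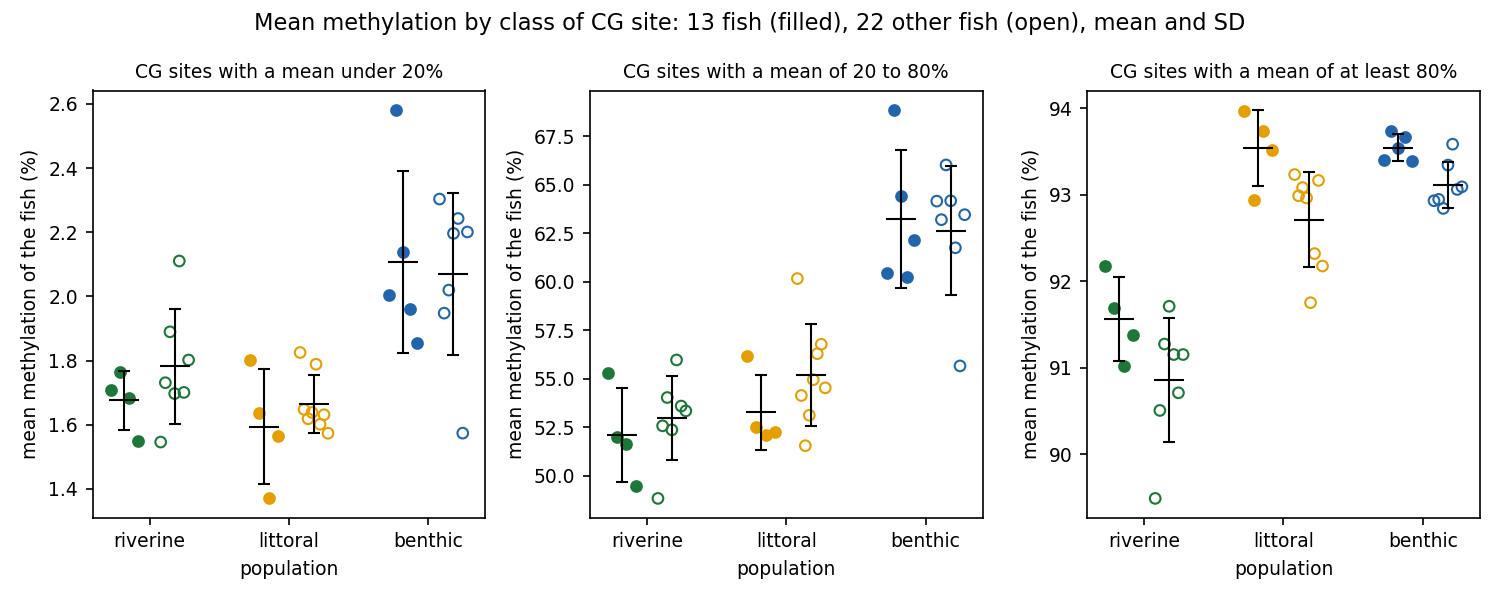
Mean methylation (percent) of each fish in 3 classes of CG sites, by population, in the 13 fish and in the other 22 wild fish with RRBS data. At highly methylated sites littoral and benthic fish lie together above riverine fish, and at sites of 20 to 80% the 5 benthic fish of the 13 lie between 60.3 and 68.9%, above the other 8 fish.

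A site at which populations differ widely cannot have a mean near 0 or 100%, so that classes cut on the mean of the 13 fish favour large differences at intermediate sites, and the classes are therefore not compared by a test. The other 22 fish come from the same populations and carry this choice with them. In them, the means of highly methylated sites were 90.9% (riverine), 92.7% (littoral) and 93.1% (benthic), with benthic minus littoral at 0.404 points (exact permutation test, adjusted p = 0.106). Intermediate sites had means of 53.0% (riverine), 55.2% (littoral) and 62.6% (benthic). Benthic minus riverine was 9.68 points and benthic minus littoral 7.44 points at these sites (exact permutation test, two-sided, adjusted p = 0.0021 for both). The benthic range of 55.7 to 66.0% overlapped the other ranges through its lowest fish, G10F09. The next lowest benthic fish, G10F04, was at 61.8%. Littoral fish lay between 51.5 and 60.2% and riverine fish between 48.8 and 56.0%. At low sites of the 22 fish, benthic minus riverine was 0.287 points (exact permutation test, adjusted p = 0.0524). Benthic minus littoral was 0.404 points there (exact permutation test, adjusted p = 0.00746). Sites were also classed by the mean of the 7 riverine fish without RNA data alone, a choice made after seeing the data. No difference between littoral and benthic fish enters these classes. Benthic minus littoral in the 13 fish was then 6.49 points at 21845 intermediate sites (exact permutation test, two-sided, adjusted p = 0.0119). At 73837 highly methylated sites it was −0.0252 points (exact permutation test, adjusted p = 0.929). At 56218 low sites it was 1.31 points (exact permutation test, adjusted p = 0.0119), more than at the low sites of the first classes. Littoral minus riverine was 2.74 points at these intermediate sites (exact permutation test, adjusted p = 0.114). At these highly methylated sites it was 1.29 points (exact permutation test, adjusted p = 0.0429). At these low sites it was 0.313 points (exact permutation test, adjusted p = 0.171). Differences from riverine fish are not free of this choice, since the riverine level of a site limits how far others can lie above or below it.

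Single sites were compared between the populations of the 13 fish with limma on the percentages, over 132755 sites that vary. A site was counted if populations differed by 25 points or more and the adjusted p was under 0.05. There were 194 sites between riverine and littoral fish (0.146% of sites tested), 539 between riverine and benthic fish (0.406%) and 145 between littoral and benthic fish (0.109%). Benthic fish were higher at 416 of the 539 and at 129 of the 145 sites, and littoral fish at 109 of the 194. The same sites differed in the same direction in the other 22 fish at 188 (96.9%), 520 (96.5%) and 138 (95.2%) of them, compared with 50.9, 56.5 and 50.8% of all sites tested. The median difference of the counted sites was 72.4, 57.5 and 57.2 points in the 13 fish in which they were chosen, and 45.6, 34.2 and 24.4 points in the other fish. Sites with sequence variants between the populations were not removed here. Their part in these differences, in the 13 and in the other fish, was not tested.

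To place the 4 littoral fish between the other populations, 937 CG sites were taken at which the other 7 riverine and 7 benthic fish differed by at least 25 points without overlap. Methylation was higher in benthic fish at 708 of them. The part of sequence variants at these sites was not tested either. On the scale where the mean of those riverine fish is 0 and that of those benthic fish is 1, the 4 riverine fish lay at 0.245 (G08F07), 0.0192 (G09D04), 0.0489 (G09D07) and −0.0211 (G09D10). The 5 benthic fish lay at 0.870 (G10E03), 1.12 (G10E09), 1.01 (G10F07), 0.764 (G10G01) and 0.963 (G10G02). The littoral fish lay at 0.569 (G08H10), 0.325 (G10G05), 0.242 (G10H04) and 0.417 (G10H05), between the benthic and riverine fish except that G10H04 was level with riverine G08F07. The 8 littoral fish without RNA data lay between 0.235 and 0.792 with a median of 0.386, and the highest of them was above benthic G10G01. With the stricter limit of 40 points (536 sites), the positions of the 4 littoral fish were higher, at 0.783, 0.553, 0.415 and 0.614, with the fish in the same order.

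An expression scale was made in the same way from the 632 genes that separated the 4 riverine and 5 benthic livers, of which 449 were higher in benthic fish. These genes were chosen on the riverine and benthic livers, so only the littoral positions are free of the choice. They were 0.382 for G08H10, 0.799 for G10G05, 0.511 for G10H04 and 0.398 for G10H05. On scales made without the fish that is placed, the populations overlapped. One part of the choice of genes still included that fish, the limit of 10 TPM in some riverine or benthic fish. Riverine G09D04 lay at 0.393, above littoral G08H10. Benthic G10G01, G10E03 and G10F07 lay at 0.662, 0.754 and 0.766, below littoral G10G05. The littoral fish nearest to the benthic end in methylation, G08H10, was the lowest in expression, and it is the littoral fish that shares its RNA run with the riverine fish. For G08H10 the position was 0.172 on genes higher and 1.35 on genes lower in benthic fish. After median-of-ratios scaling of the libraries the genes were chosen anew, and 187 of 656 were higher in benthic fish. The littoral positions were then 0.758, 0.810, 0.631 and 0.567, so that the place of G08H10 depends on the scaling and the choice of genes that follows it. No relation between both positions was computed over these 4 fish.

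**Figure D4:**
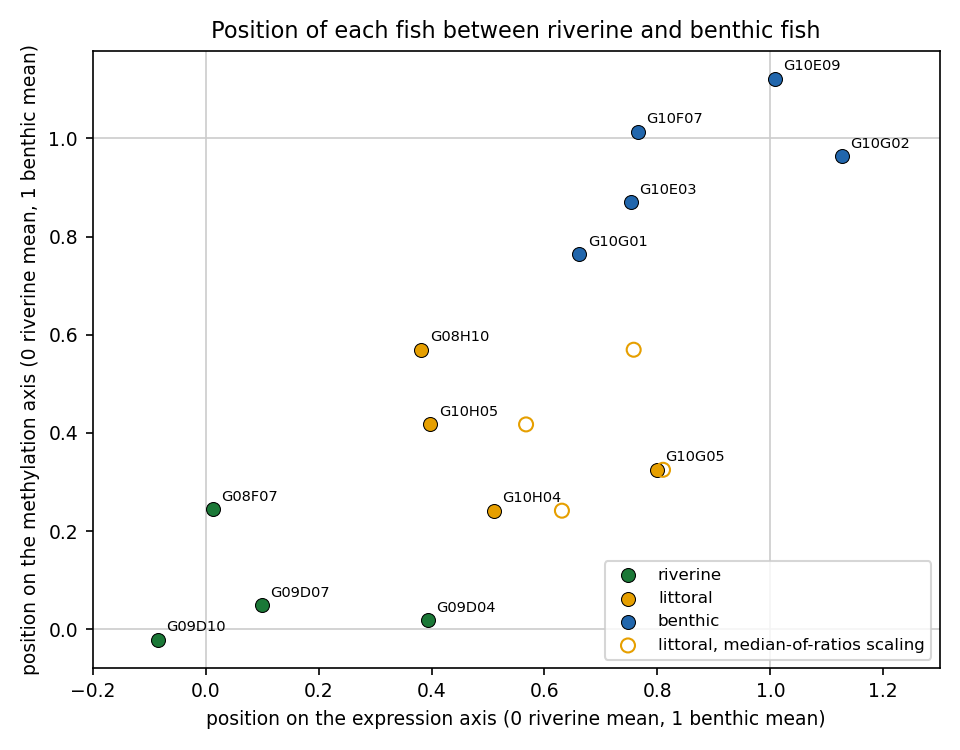
Position of fish between riverine (0) and benthic (1) livers in methylation and in expression. In expression, each riverine and benthic fish is placed on a scale made without that fish, except for the limit of 10 TPM in some fish. Littoral fish are drawn a second time, as open points, after median-of-ratios scaling with the genes chosen anew. The 4 littoral fish lie between 0.242 and 0.569 in methylation. In expression they lie between 0.382 and 0.799, and after scaling between 0.567 and 0.810. Before scaling, riverine G09D04 (0.393) and benthic G10G01, G10E03 and G10F07 (0.662, 0.754 and 0.766) lie within the littoral range in expression.

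Mean methylation was next related to the expression of each gene among fish of the same population (limma on log2(TPM + 0.1) with population as a term, 21147 genes whose mean reached 0.1 TPM). The percent of genes at an adjusted p under 0.05 was 0, that is 0 of 21147 genes, and 780 genes (3.69%) were at an unadjusted p under 0.05, 146 of them with a positive and 634 with a negative slope. After median-of-ratios scaling 451 were positive and 450 negative, without G08H10 212 and 251, and without G10E09 1772 genes were at this limit, so that neither the balance nor the count is stable. The lowest adjusted p was 0.511. The count stayed at 0 under each of the other pseudocounts, filters and scalings tried, with the RNA run as a covariate and without each fish in turn. The median slope over all genes was −0.20 on the log2 scale per percentage point, −0.01 after median-of-ratios scaling and −0.04 without littoral G08H10.

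The genes with the smallest p in this fit are given as a description. Their choice by this slope favours genes at an extreme in the most methylated fish of a population. In each population the fish with the highest mean methylation (G08F07, G08H10 and G10E09) had the lowest TPM of all 5 leading genes with a negative slope. LOC101486538, which the files do not name, stood at 10.3, 26.9, 148 and 65.8 TPM in the riverine fish in the order given above, at 0.718, 3.59, 5.94 and 2.60 TPM in the littoral fish and at 20.7, 3.57, 6.05, 25.2 and 38.6 TPM in the benthic fish. Its slope was −2.43 ± 0.38 (SE) on the log2 scale per point (limma, unadjusted p = 2.4e-05, adjusted p = 0.511). *arhgef38*, a guanine nucleotide exchange factor gene, stood at 10.9, 21.2, 28.0 and 15.7 TPM in riverine, 0.788, 7.61, 4.11 and 3.31 TPM in littoral and 24.7, 3.14, 9.36, 12.5 and 14.5 TPM in benthic fish, with a slope of −1.70 ± 0.33. The fish low in both genes were the same 3 fish, a pattern that the choice of the genes favours. LOC101475040, LOC101485520 and LOC106676328 had slopes of −1.58, −1.71 and −1.41.

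In the other direction, LOC112435698 stood at 10.7, 2.94, 1.06 and 1.08 TPM in the riverine fish, 0.992, 0.283, 0.383 and 0.115 TPM in the littoral fish and 5.09, 59.5, 12.4, 6.35 and 26.7 TPM in the benthic fish. Every benthic fish was above every littoral fish. The gene was highest in the most methylated fish of each population, which its choice by this slope also favours. Its slope was 2.20 ± 0.41 (limma, unadjusted p = 0.000128, adjusted p = 0.858). The difference between littoral and benthic fish was 5.00 ± 0.80 on the log2(TPM + 0.1) scale (limma, adjusted p = 0.0357). That call was lost when littoral G10G05, G10H04 or G10H05 or benthic G10E09, G10F07 or G10G02 was left out (highest adjusted p 0.0914). LOC101472798, LOC112430468, LOC112430904 and LOC111501571 had slopes of 2.38, 1.918, 2.17 and 2.64, and none of them exceeded 2.24 TPM in any fish. The last 3 were above 0 in 3 fish each. LOC112430904 has the same TPM in every fish as LOC112431064 and cannot be told apart from it.

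Between populations, 161 genes were called from riverine to littoral (0.761% of genes tested), 619 from riverine to benthic (2.93%) and 47 from littoral to benthic fish (0.222%), where a call needs an absolute log2 difference of 1.5 or more, 10 TPM or more in some fish and an adjusted p under 0.05. From riverine to benthic, 457 rose (2.16% of genes tested) and 162 fell (0.766%), from riverine to littoral 88 rose (0.416%) and 73 fell (0.345%), and from littoral to benthic 43 rose (0.203%) and 4 fell (0.0189%). The median over all genes was shifted by 0.40 from riverine to littoral, 0.62 from riverine to benthic and 0.20 from littoral to benthic fish on the log2 scale. After median-of-ratios scaling these shifts were 0.08, 0.12 and 0.02, and 192 of 663 called genes rose from riverine to benthic and 46 of 231 from riverine to littoral. The balance of directions thus depends on the scaling. With the RNA run as a covariate, which leaves the contrasts with riverine fish to a single littoral library, 25 of 326 and 32 of 351 rose. The counts also moved with single fish. From riverine to littoral there were 257 called genes without G09D04 and 59 to 105 without G08F07, G09D07, G09D10, G10G05, G10H05, G10E03 or G10E09. From riverine to benthic there were 229 to 345 without G08F07, G09D07, G09D10, G10E09 or G10G02, and from littoral to benthic 1 to 23 without G08F07, G10G05, G10H04, G10H05, G10E09, G10F07 or G10G02.

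Of the genes that write, read or erase DNA methylation, 9 could be matched by symbol and tested, and none could be called, since none reached 10 TPM in any fish. By adjusted p alone, *dnmt1*, *uhrf1* and *dmap1*, whose product binds Dnmt1 in mammals, rose from riverine to benthic fish, that is 3 of 9. At that limit 11.2% of all genes tested differed, with 2043 of 21147 rising and 316 falling. The median over the 9 genes was 0.94 from riverine to littoral, 1.303 from riverine to benthic and 0.12 from littoral to benthic fish, beside the shifts of 0.40, 0.62 and 0.20 of all genes. Fewer cells of a type and less RNA per cell cannot be told apart in these bulk livers.

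*dnmt1*, the maintenance methyltransferase, stood at 0.196 (G08F07), 0.574 (G09D04), 0.278 (G09D07) and 0.124 TPM (G09D10) in riverine fish. It stood at 0.9999 (G08H10), 1.19 (G10G05), 1.13 (G10H04) and 0.899 TPM (G10H05) in littoral fish, and at 0.672 (G10E03), 1.497 (G10E09), 0.662 (G10F07), 1.06 (G10G01) and 2.82 TPM (G10G02) in benthic fish. All lake fish were above all riverine fish, at levels at which TPM are imprecise. The difference was 1.80 ± 0.46 from riverine to benthic (SE, log2 scale, limma, adjusted p = 0.0279) and 1.67 ± 0.48 from riverine to littoral fish (adjusted p = 0.0886). The adjusted p was 0.0359 after scaling and 0.408 with the run as a covariate, and it passed 0.05 without riverine G08F07, G09D07 or G09D10 or benthic G10E09 or G10G02 (highest 0.0916). Within populations, the slope of *dnmt1* on mean methylation was 0.10 ± 0.42 (limma, unadjusted p = 0.81).

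*uhrf1*, which guides Dnmt1 to replicated DNA, was at 0.0341 to 0.173 TPM in riverine, 0.0753 to 0.484 TPM in littoral and 0.294 to 2.16 TPM in benthic fish, and was 2.10 ± 0.56 (log2 scale) higher in benthic than in riverine fish (limma, adjusted p = 0.0322). It passed 0.05 without riverine G08F07, G09D07 or G09D10 or benthic G10E09, G10G01 or G10G02 (highest 0.0976), and was 0.265 with the run as a covariate. Its slope within populations was −0.16 ± 0.51. For *uhrf2*, a relative of *uhrf1*, and *tet2*, which oxidizes methylcytosine, the riverine to benthic differences were −0.21 ± 0.59 and 0.12 ± 0.45 (limma, adjusted p = 0.83 and 0.88), and the slopes were −0.69 ± 0.51 and −0.38 ± 0.41. In these livers, mean methylation and *dnmt1* and *uhrf1* RNA were all above the riverine level in benthic fish, and no relation of either gene with mean methylation was detectable within populations. G10G02, the benthic fish highest in both genes, is also the fish with the highest sum of leukocyte markers, and the part of these cells was not tested.

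Of 18 genes of methyl donor supply, 1 was called, *gnmt*, which encodes the glycine N-methyltransferase that consumes S-adenosylmethionine in the liver. The fall from riverine to benthic fish of 1 in 18 stands beside 0.766% of all genes tested. *gnmt* stood at 82.2, 101, 201 and 258 TPM in the riverine fish, 89.3, 35.9, 42.1 and 56.2 TPM in the littoral fish and 46.2, 37.2, 34.1, 49.8 and 33.9 TPM in the benthic fish. No benthic fish reached the lowest riverine fish, whereas littoral G08H10 did. In benthic compared with riverine fish the gene fell by 1.856 ± 0.36 on the log2 scale (limma, adjusted p = 0.011) and stayed called without any single fish. With the run as a covariate, the difference was −0.84 ± 0.65 (adjusted p = 0.597). Its slope within populations was −0.25 ± 0.32. The summed level of the 18 genes was 1187 to 1660 TPM in riverine fish. It was 859 to 1131 TPM in littoral and 669 to 883 TPM in benthic fish. The lowest riverine fish was above every lake fish, and the littoral and benthic ranges overlapped. *ahcy* and *cth* had the highest mean levels in each population and weigh most in this sum. The mean log2 level of the 18 genes overlapped between all populations. It was 3.53 to 4.26 in riverine, 3.59 to 4.40 in littoral and 3.37 to 4.01 in benthic fish. By adjusted p alone, 3 of the 18 fell from riverine to benthic fish (*gnmt*, *ahcyl1* and *cth*). *cth* encodes the enzyme that turns cystathionine into cysteine. At that limit 11.2% of all genes tested differed, with 316 of 21147 falling and 2043 rising. The median of the 18 was −0.42 beside 0.62 for all genes.

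**Figure D5:**
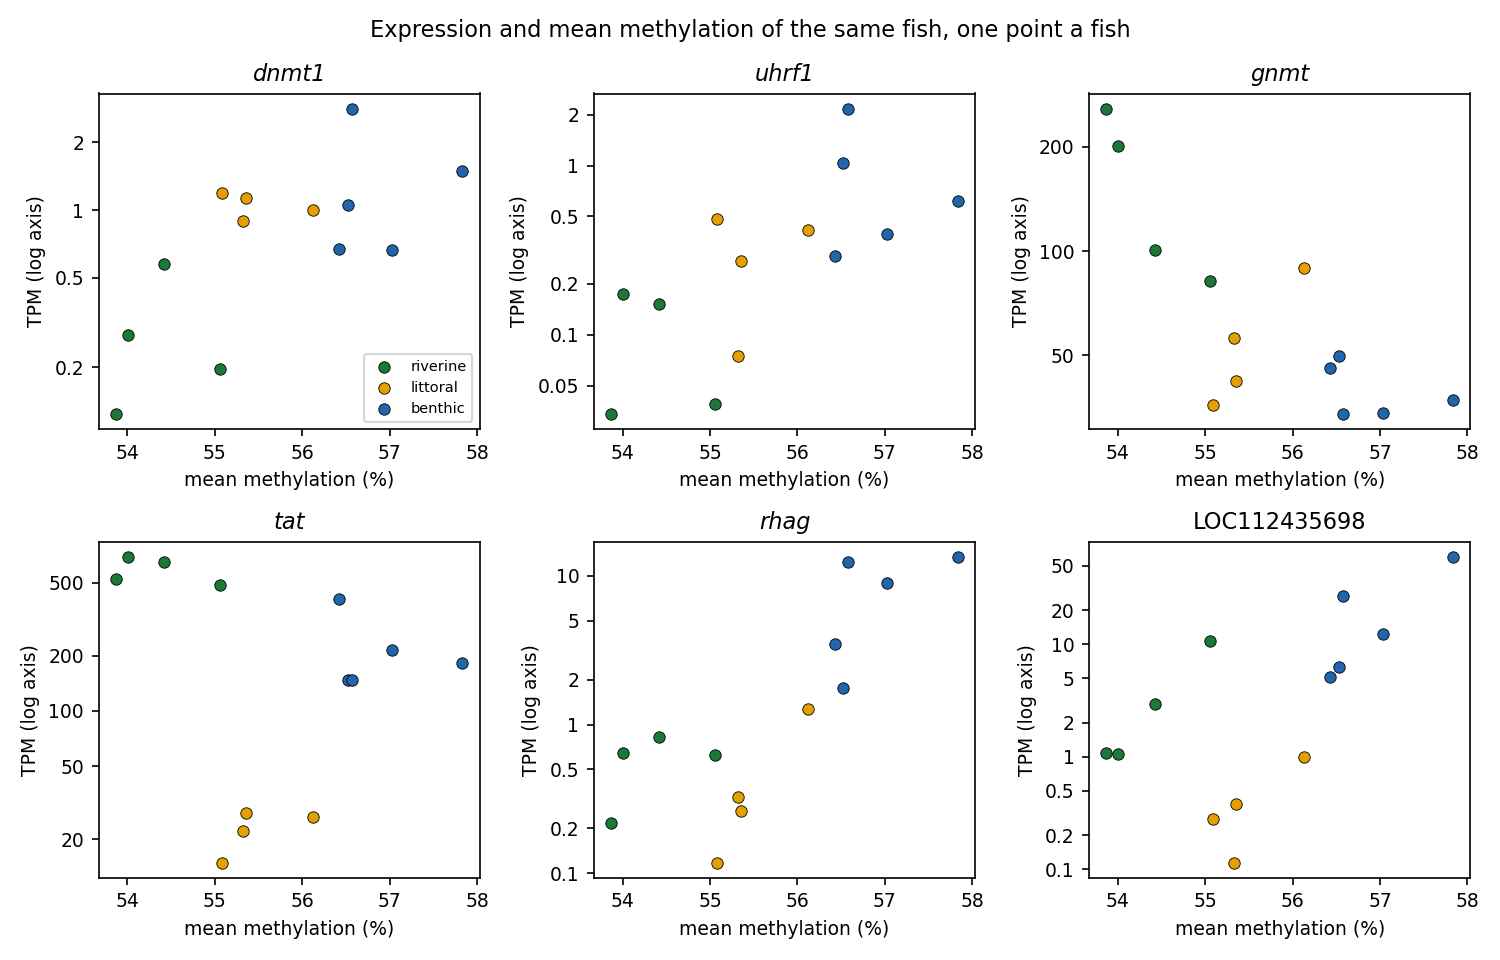
TPM (log axis) of 6 genes against mean methylation (percent) of the same fish, coloured by population. *dnmt1* and *uhrf1* are higher and *gnmt* lower in benthic than in riverine fish, and the slopes on mean methylation within populations are 0.10, −0.16 and −0.25 on the log2 scale per point.

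Further genes of the cell type lists were called. *tat*, which encodes tyrosine aminotransferase of the hepatocyte, stood at 484, 651, 688 and 525 TPM in riverine fish, 26.5, 14.9, 27.6 and 22.04 TPM in littoral fish and 407, 182, 215, 148 and 147 TPM in benthic fish. It was lowest in the littoral livers, which lie between the other populations in mean methylation, and its slope within populations was −0.04 ± 0.28. Compared with riverine fish, it fell by 4.71 ± 0.33 (log2 scale) in littoral fish (limma, adjusted p = 1.12e-05) and by 1.52 ± 0.31 in benthic fish (adjusted p = 0.0138), and it was 3.19 ± 0.31 higher in benthic than in littoral fish (adjusted p = 0.00129). The call from riverine to benthic fish, close to the limit of 1.5, was lost without riverine G09D04 or G09D07 or benthic G10E09, G10G01 or G10G02, and with the run as a covariate (−1.17, adjusted p = 0.398).

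Of 5 erythroid genes, *rhag*, which encodes a red cell membrane glycoprotein, rose and *gata1*, an erythroid transcription factor gene, fell from riverine to benthic fish, beside 2.16% of all genes tested that rose and 0.766% that fell. *rhag* stood at 0.622, 0.823, 0.648 and 0.217 TPM in riverine, 1.27, 0.118, 0.262 and 0.325 TPM in littoral and 3.50, 13.4, 8.91, 1.76 and 12.5 TPM in benthic fish. All 5 benthic fish were above the other 8 fish. It rose by 3.33 ± 0.66 from riverine to benthic (limma, adjusted p = 0.0118), a call kept without any single fish. Benthic fish were 3.77 ± 0.66 above littoral fish (limma, adjusted p = 0.0357), and this call was lost without riverine G08F07, littoral G10G05, G10H04 or G10H05 or benthic G10E09, G10F07 or G10G02 (highest adjusted p 0.102). The slope of *rhag* on mean methylation within populations was 1.37 ± 0.47 (limma, unadjusted p = 0.0118, adjusted p = 0.971). *gata1* was at 0.917 to 12.4 TPM in riverine, 0.0740 to 2.18 TPM in littoral and 0.0819 to 0.5004 TPM in benthic fish, and fell by 3.41 ± 0.78 from riverine to benthic fish (adjusted p = 0.02), a call lost without riverine G09D07 or G09D10 (highest adjusted p 0.0717). Its slope was −1.29 ± 0.62 (limma, adjusted p = 0.971).

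Of 8 leukocyte genes, *lcp1* and *cd79a* were called from riverine to benthic fish, with rises of 2.61 ± 0.76 and 3.27 ± 0.95 (limma, adjusted p = 0.043 and 0.0424), that is 2 of 8 beside the 2.16% of all genes tested that rose. Both were highest in G10G02, at 86.6 and 63.7 TPM, where the other 4 benthic fish were at 4.15 to 9.58 and 1.36 to 8.07 TPM. Both calls were lost after scaling (adjusted p = 0.0586 and 0.0521), with the run as a covariate (1.16 and 1.81, adjusted p = 0.775 and 0.711) and without riverine G08F07, G09D07 or G09D10, littoral G10H04 or G10H05 or benthic G10E03, G10E09 or G10G02.

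Summaries of each transcriptome were also set against mean methylation within populations. Of 11 relations over the 13 fish, with both values centred per population, none passed adjustment (exact permutation test, two-sided, lowest adjusted p = 0.637). The strongest was that of the 5 endothelium and stroma genes, with r = −0.561 (exact permutation p = 0.0579) and rho = −0.401 (p = 0.191), and r was −0.637 without the 2 fish farthest in mean methylation, G08F07 and G10E09. For the leukocyte list r was −0.168, for the hepatocyte list 0.0748, for the DNA methylation list −0.116 and for the methyl donor list −0.145. For the mapped RRBS reads, r was −0.139 (exact permutation p = 0.669).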

How the data were processed

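The authors trimmed the RNA-seq reads with TrimGalore, quantified transcripts with kallisto against the *Maylandia zebra* UMD2a annotation and deposited TPM per transcript and fish, with no scaling between libraries. The authors aligned the RRBS reads (MspI digestion) to the UMD2a genome with Bismark and deposited the percent methylation of each CG site found in all fish. Neither table holds read counts, so the exact depth behind a value is unknown. The names of the RRBS columns carry a tag that points to a minimum of coverage, which could not be varied here. The versions of these tools are not given here. Reads of the second RNA run were cropped before quantification, as the column names show. For the RNA libraries, the labels name ribosomal RNA depletion and the study's methods name poly(A) selection, and this was not settled. Mapped RRBS reads were taken from the study's supplementary table and used only as a covariate, for their order and in the relation with mean methylation.

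TPM were summed to genes by symbol and analysed as log2(TPM + 0.1) with limma 3.58.1 in R 4.3.3 (trend, Benjamini-Hochberg over all 21147 genes tested). Distances and permutations (100000 draws, or exact enumeration where stated) used Python 3.11.15, pandas 2.3.3, numpy 2.4.6 and scipy 1.17.1. The procedures were tested on simulated data. Fish were assigned to populations and runs by their labels.

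Genes named are the 5 with the smallest p in each direction in the fit on mean methylation, the writers of DNA methylation and Tet genes, and members of the lists called in a comparison. The fish, the lists and the tests were chosen with earlier results of these data known. The relation with the population pair held, the fit of single CG sites, the positions, the means in the other 22 fish, the classes set on riverine fish, the relations of mean methylation with the DNA methylation and methyl donor lists and with mapped reads, and the correction for the sum of mapped reads were added after seeing the data. Relations of promoter methylation with expression were not run, since no annotation of the files' genome build was used here. Gene lists were matched by symbol and miss unnamed genes. The whole-genome and common-garden libraries were not analysed here.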

Additional observations from a re-analysis of the deposited data

Results flagged for a closer look

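In 100 groups of 4 or 5 fish, 9 values stood apart from the rest of their population by Dixon's test, which flags about 1 in 20 groups by chance. Several of these values come from the same fish. The LOC genes among them were chosen for their slope on mean methylation, so the count cannot be set against that rate. Littoral G08H10 had a mean of 56.2% at CG sites of intermediate methylation, where the other 3 littoral fish lay between 52.1 and 52.5%. Riverine G09D04 had a mean log2 level of −0.12 over the DNA methylation genes, compared with −1.18 to −1.09 in the other riverine fish. Its number of genes above 0 TPM, 21946, was also the highest of the riverine fish. The pancreas genes had a mean log2 level of 2.42 in benthic G10F07 and 0.39 to 0.91 in the other benthic fish. *lcp1* had a log2 level of 6.44 in benthic G10G02 and 2.09 to 3.28 in the others. The remaining values belong to genes listed at 0 TPM, −3.32 on the log2 scale, in the other fish of the population. LOC112430468 was at −2.21 in riverine G08F07, −0.46 in littoral G08H10 and −0.43 in benthic G10E09, LOC112430904 was at −1.26 in riverine G08F07, and LOC111501571 was at 1.03 in benthic G10E09.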

How the results depend on the processing

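No paired analysis was possible because each fish belongs to a single population and the labels give no number that pairs fish across populations. The separation of the populations kept its direction and its p under 0.05 in every setting tried, and without each fish in turn lay between 0.0213 and 0.0312 for expression and between 0.713 and 0.981 points for methylation. The relation of both distances over all pairs was 0.375 to 0.565 without each fish, 0.110 (p = 0.596) when methylation distance was 1 minus rho, and 0.518 (permutation p = 0.0594) in the second RNA run. Within populations it was −0.294 to −0.0218 without each fish, and turned to 0.0401 with genes of at least 1 TPM and 0.0196 with Euclidean distances. With the population pair held it turned to −0.0286 at sites of 20 to 80% and lay between −0.0364 and 0.268 without each fish, below 0 without G10G05 or G10G02. Littoral minus riverine mean methylation was 0.917 to 1.38 points without each fish, 1.16 at intermediate and −0.0821 at low sites, and 1.11 on linkage groups. Benthic minus riverine lay between 2.30 and 2.78 points, and benthic minus littoral between 1.17 and 1.62, with 0.0059 at highly methylated sites. In the second run, 5 relations of mean methylation with fish summaries turned: genes above 0 (0.114), share of the 10 top genes (−0.126), erythroid (0.387), pancreas (0.0881) and DNA methylation genes (0.0335). Genes called from riverine to littoral were 94 with a pseudocount of 1, 257 with a mean of at least 1 TPM, 101 without a filter, 351 with the run as a covariate and 59 to 257 without each fish. From riverine to benthic they were 392 with a pseudocount of 1, 326 with the run and 229 to 769 without each fish. From littoral to benthic they were 14 with a pseudocount of 1, 4 without a filter and 1 to 68 without each fish. The cause of these changes was not tested.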
